A study of Mus musculus with 8 samples.

Results

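The genes described here are 40 genes of the endoplasmic reticulum (ER), chosen by a list of symbols: chaperones, disulfide isomerases, prolyl isomerases, stress sensors and genes of ER-associated degradation. Of these, 37 had a probe set, out of 14351 genes with a probe set in the series, and Dnajc3, Dnajc10 and Atf6 were not analysed here. In the ER, secreted and membrane proteins fold with the help of the chaperone BiP and its partners, and disulfide bonds are formed by isomerases recharged by oxidases. When unfolded proteins accumulate, the sensors IRE1, PERK and ATF6 raise the transcription of this machinery, partly through the spliced form of XBP1, while degradation genes carry terminally misfolded proteins back to the cytosol. In the colon this machinery is known to be most heavily used by mucus-secreting goblet cells and antibody-secreting plasma cells.

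The study set colon RNA from adult mice lacking STAT5b, a transcription factor of growth hormone and cytokine signalling, against colon RNA from wild type mice. The STAT5b-/- group held 3 arrays, the REF group, also of wild type genotype, counted as 1 sample, and the WT group held 3 arrays. STAT5b-/- replicate 1 came from a male mouse and all the other arrays from females. No treatment, age in weeks, strain or allele was stated, nor what REF stands for. The labels do not state either that replicates came from separate animals, and the p-values then reflect the spread of these arrays alone, which may be technical.

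Each deposited value gives a probe set relative to its WT average, so 1 is the WT mean, and the level of one gene cannot be set against that of another, nor can the tissue be checked by the level of its markers. The median ratio over all probe sets was 0.968 to 0.988 in the STAT5b-/- arrays, 0.948 in REF and 0.960 to 1.04 in the WT arrays. Stat5b itself had ratios of 1.16, 1.17 and 1.26 in STAT5b-/- colons, 1.18 in REF and 1.08, 0.930 and 0.993 in WT colons, with a log2 difference of 0.26 ± 0.12 (SE, limma adjusted p = 0.175). It was thus not lower in the arrays labelled STAT5b-/-, and since the lost stretch of the gene is not described, its probe set does not check the genotype. All directions below rest on the labels.

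Most of the ER folding genes were lower in STAT5b-/- colon than in WT colon, and none was called higher. Of the 37 genes, 22 fell (limma, Benjamini-Hochberg adjusted p under 0.05 over all genes), or 59.5%, where 8.42% of all genes were lower and 13.3% higher. By limma, 0 of 37 were higher at the adjusted p and 0 at an unadjusted p under 0.05, which 21.1% of all genes reached upward. Downward, 27 of 37 reached the unadjusted p, against 14.0% of all genes. The median log2 difference of the ER genes was -0.71, against 0.01 over all genes. At least 2-fold falls were seen in 10 of the 37, or 27.0%, against 3.58% of all genes. The 3 STAT5b-/- arrays lay below all 3 WT arrays in 28 members, where this held for 16.5% of all genes. The largest fall was in Fkbp11, at 9.47-fold, and the genes nearest to no change were Canx, Derl1, P4hb, Derl2 and Dnajb9. In whole-tissue RNA, fewer cells of a secretory type and less RNA per cell cannot be told apart. Quantile normalization of the arrays, which forces the wider spread of the STAT5b-/- arrays onto a common distribution, left 8 of the 22 calls, all of them falls: Hspa5, Creld2, Manf, Pdia6, Txndc5, Fkbp11, Creb3l1 and Edem1. Over all genes it left 239 lower and 158 higher calls, so that 39.8% of calls were higher against 61.2% without it.

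**Figure D1:**
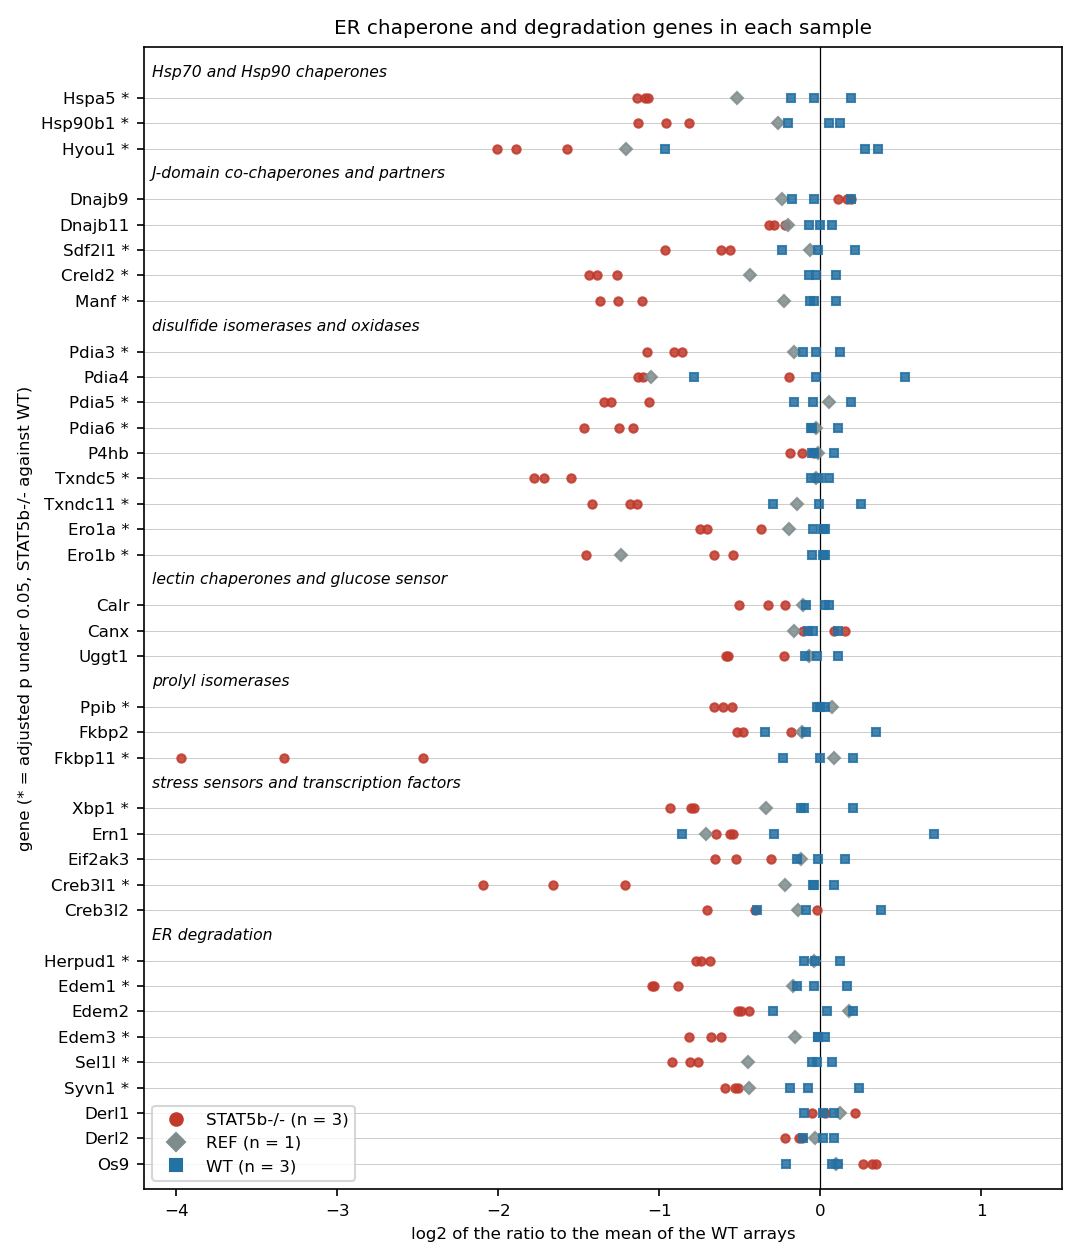
Log2 ratio to the WT mean (horizontal axis) of each of the 37 ER genes in each sample, grouped by role, with 1 point per sample (STAT5b-/- circles, REF diamonds, WT squares) and an asterisk for genes called in STAT5b-/- against WT. The STAT5b-/- points lie left of all WT points in 28 genes, and furthest left for Fkbp11, while those of Canx, Derl1 and Dnajb9 overlap the WT points.

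Promoter windows are shown for the 6 members with the smallest p among those that hold an exact binding motif of the unfolded protein response, because these are the letters through which ATF6 and XBP1 are known to act. Windows run from 250 bases before to 50 after the annotated start, are taken from RefSeq on build GRCm38.p6, and are written 5′ to 3′ on the strand of the gene. They were found for 33 of the 37 genes. Txndc5 had 3 windows and Txndc11 had 2, and for each gene only the window shown held a match. The motifs searched, on both strands, were the ER stress element (ERSE: CCAAT, then 9 bases of any kind, then CCACG), ERSE-II (ATTGG, 1 base, CCACG) and the unfolded protein response element (UPRE: TGACGTGG). No matches overlapped each other. Capitals mark the match, which reads as its reverse complement where it lies on the other strand.
Txndc5, chr13:38527865-38528164, minus strand: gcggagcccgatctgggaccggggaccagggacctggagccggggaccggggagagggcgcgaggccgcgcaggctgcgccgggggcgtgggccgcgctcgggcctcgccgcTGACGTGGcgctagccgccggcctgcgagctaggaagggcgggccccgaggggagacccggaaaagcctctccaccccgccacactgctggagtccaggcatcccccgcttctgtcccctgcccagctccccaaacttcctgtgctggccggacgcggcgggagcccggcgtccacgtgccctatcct
Creld2, chr15:88819396-88819695, plus strand: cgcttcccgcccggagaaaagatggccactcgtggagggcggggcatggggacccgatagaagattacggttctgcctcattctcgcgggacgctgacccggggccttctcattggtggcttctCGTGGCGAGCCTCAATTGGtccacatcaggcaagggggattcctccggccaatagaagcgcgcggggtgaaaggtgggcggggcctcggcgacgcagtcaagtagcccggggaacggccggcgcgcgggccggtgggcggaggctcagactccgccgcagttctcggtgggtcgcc
Pdia6, chr12:17266339-17266638, plus strand: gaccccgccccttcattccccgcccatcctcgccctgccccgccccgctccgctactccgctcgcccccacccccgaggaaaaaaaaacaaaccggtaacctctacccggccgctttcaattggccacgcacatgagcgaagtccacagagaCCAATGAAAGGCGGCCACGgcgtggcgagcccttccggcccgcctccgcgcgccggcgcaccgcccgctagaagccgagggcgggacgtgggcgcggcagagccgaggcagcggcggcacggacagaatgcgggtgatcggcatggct
Hspa5, chr2:34771840-34772139, plus strand: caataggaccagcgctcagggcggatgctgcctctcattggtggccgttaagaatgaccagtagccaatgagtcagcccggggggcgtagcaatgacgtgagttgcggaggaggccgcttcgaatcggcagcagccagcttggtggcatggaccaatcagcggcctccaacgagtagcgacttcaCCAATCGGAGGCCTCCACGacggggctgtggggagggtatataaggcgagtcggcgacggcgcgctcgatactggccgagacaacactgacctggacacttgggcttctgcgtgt
Txndc11, chr16:11134483-11134782, minus strand: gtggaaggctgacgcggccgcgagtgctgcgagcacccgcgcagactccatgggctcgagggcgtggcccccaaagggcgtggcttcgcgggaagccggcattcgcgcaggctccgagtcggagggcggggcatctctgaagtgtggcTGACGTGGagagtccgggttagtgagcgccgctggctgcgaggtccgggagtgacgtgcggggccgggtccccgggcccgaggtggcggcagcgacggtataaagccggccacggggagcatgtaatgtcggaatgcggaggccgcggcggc
Hsp90b1, chr10:86705395-86705694, minus strand: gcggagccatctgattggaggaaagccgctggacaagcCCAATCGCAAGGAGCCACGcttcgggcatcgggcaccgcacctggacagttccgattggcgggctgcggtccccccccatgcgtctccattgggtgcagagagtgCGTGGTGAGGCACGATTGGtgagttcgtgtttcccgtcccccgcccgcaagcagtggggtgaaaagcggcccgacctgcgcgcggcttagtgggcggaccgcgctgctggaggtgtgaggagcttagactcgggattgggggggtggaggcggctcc
An ERSE was present in 8 of the 33 genes (24.2%), against 0.137% of all 27025 genes in the promoter table. ERSE-II and UPRE were each present in 2 of the 33 genes (6.06%), against 0.0444% and 0.714% of all genes. Since the list holds machinery that this response is known to raise, these shares describe the list and are not a test. Any of the motifs was found in 9 of the 19 members called lower that had a window, and in 3 of the 14 members that were not called. Over all genes the share was 0.884%, and the split by call was not tested. The uncalled holders were Calr and Canx with an ERSE and Dnajb11 with an ERSE-II. A match is a description of the letters, not a measured binding site, and Fkbp11, the member with the largest fall, had no match in its window.

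**Figure D2:**
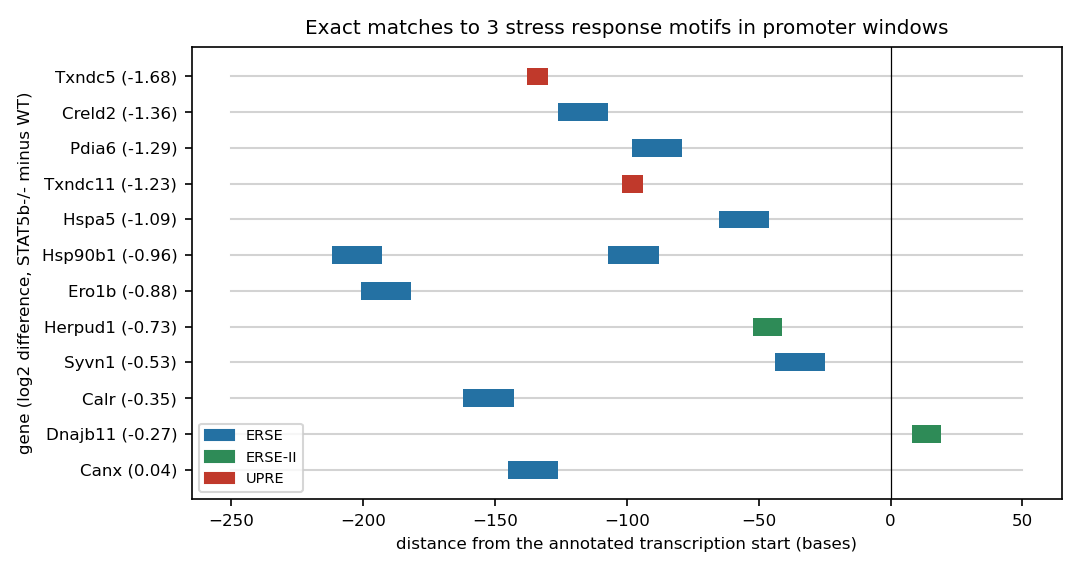
Positions of exact ERSE, ERSE-II and UPRE matches relative to the annotated transcription start (horizontal axis, bases, grey line for the window) in the 12 ER genes that hold one, ordered by their log2 difference between STAT5b-/- and WT colon, which is given in brackets. All matches but that of Dnajb11 lie before the start, and Hsp90b1 alone holds 2.

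Of the large chaperones, 3 of 3 fell. Over all genes 8.42% were lower, the share to set beside each count by role below, and roles were not compared by a test. Hspa5, which encodes BiP, the central Hsp70 chaperone of the ER and a repressor of the stress sensors, had ratios of 0.454, 0.470 and 0.476 in STAT5b-/- colons, 0.699 in REF and 0.882, 1.14 and 0.974 in WT colons. The groups did not overlap, REF lay between them, and the fall was 2.13-fold, with a log2 difference of -1.09 ± 0.14 (SE, limma adjusted p = 0.00261). Hsp90b1, the ER form of Hsp90, had ratios of 0.456, 0.515 and 0.569 in STAT5b-/- colons, 0.833 in REF and 0.870, 1.04 and 1.09 in WT colons. It was 1.95-fold lower, again with no overlap (log2 difference -0.96 ± 0.15, adjusted p = 0.00572). Hyou1, which exchanges nucleotide on BiP, had ratios of 0.249, 0.270 and 0.336 in STAT5b-/- colons, 0.434 in REF and 1.28, 0.512 and 1.21 in WT colons. WT replicate 2 was far below the other WT arrays for this gene, and REF was lower still. The Hyou1 difference was -1.71 ± 0.36 (adjusted p = 0.0166), and -2.14 without WT replicate 2. Its call ended without STAT5b-/- replicate 1 (adjusted p = 0.0709), STAT5b-/- replicate 2 (0.0665) or WT replicate 3 (0.0552).

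Among the J-domain proteins and other BiP partners, 3 of 5 fell. Creld2, a stress-induced protein of the ER lumen that acts on disulfides, had ratios of 0.370, 0.382 and 0.417 in STAT5b-/- colons, 0.739 in REF and 0.983, 1.07 and 0.951 in WT colons. All STAT5b-/- values lay far below REF and WT, and the log2 difference of -1.36 ± 0.12 (SE, limma adjusted p = 0.000771) is a 2.57-fold fall. Manf, a secreted factor that also binds BiP, had ratios of 0.387, 0.419 and 0.464 in STAT5b-/- colons, 0.854 in REF and 0.972, 1.07 and 0.955 in WT colons, a 2.36-fold fall (log2 difference -1.24 ± 0.13, adjusted p = 0.00127). Sdf2l1, a partner of the J-domain protein Dnajb11, had ratios of 0.513, 0.653 and 0.678 in STAT5b-/- colons, 0.956 in REF and 1.16, 0.991 and 0.846 in WT colons. The groups were apart, but its difference of -0.70 ± 0.18 (adjusted p = 0.0319) lost its call without any one of the STAT5b-/- arrays (adjusted p = 0.0983, 0.0810 and 0.0667) or without WT replicate 1 (0.0830). The J-domain genes themselves did not pass. Dnajb11, which feeds unfolded clients to BiP, had 0.801, 0.859 and 0.819 in STAT5b-/- colons, 0.870 in REF and 1.00, 1.05 and 0.952 in WT colons (log2 difference -0.27 ± 0.11, adjusted p = 0.137). Dnajb9, a J-domain protein that restrains IRE1, had 1.08, 1.14 and 1.12 in STAT5b-/- colons, 0.847 in REF and 0.975, 1.14 and 0.886 in WT colons, and the groups overlapped (0.16 ± 0.14, adjusted p = 0.455).

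Of the disulfide isomerases and oxidases, 7 of 9 fell, with a median log2 difference of -0.94. Txndc5, an isomerase abundant in secretory cells, had ratios of 0.304, 0.292 and 0.342 in STAT5b-/- colons, 0.982 in REF and 1.04, 0.962 and 0.995 in WT colons. REF lay inside the WT range and all STAT5b-/- arrays far below it, a 3.20-fold fall (log2 difference -1.68 ± 0.12 (SE), limma adjusted p = 0.000402, the smallest of the 37). Pdia6, which also damps the stress sensors, had 0.361, 0.446 and 0.421 in STAT5b-/- colons, 0.982 in REF and 0.964, 1.08 and 0.960 in WT colons. It was 2.45-fold lower (-1.29 ± 0.13, adjusted p = 0.00129), with REF again among the WT arrays. Pdia5 had 0.394, 0.406 and 0.478 in STAT5b-/- colons, 1.04 in REF and 0.969, 0.893 and 1.14 in WT colons (2.34-fold lower, -1.23 ± 0.15, adjusted p = 0.00236). Txndc11, a membrane-bound thioredoxin-domain protein, had 0.375, 0.455 and 0.440 in STAT5b-/- colons, 0.903 in REF and 0.995, 0.817 and 1.19 in WT colons (-1.23 ± 0.17, adjusted p = 0.00402). In all 4 of these isomerases the STAT5b-/- arrays lay below REF and every WT array. The Txndc11 values are means of 2 probe sets, whose own differences were -1.21 and -1.24. Pdia3, the isomerase that works with calnexin and calreticulin on glycoproteins, fell 1.92-fold to 0.552, 0.475 and 0.533 in STAT5b-/- colons, against 0.892 in REF and 0.983, 1.09 and 0.928 in WT colons (-0.94 ± 0.13, adjusted p = 0.00364).

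The oxidases Ero1a and Ero1b (listed under the older names Ero1l and Ero1lb) recharge the isomerases with oxidising equivalents, and their calls were weaker. Ero1a had ratios of 0.613, 0.595 and 0.773 in STAT5b-/- colons, 0.874 in REF and 1.01, 1.02 and 0.970 in WT colons (log2 difference -0.61 ± 0.14 (SE), limma adjusted p = 0.0245). Ero1b had 0.364, 0.634 and 0.688 in STAT5b-/- colons, 0.424 in REF and 1.01, 1.02 and 0.965 in WT colons (-0.88 ± 0.25, adjusted p = 0.0447). REF, of wild type genotype, was thus as low as the STAT5b-/- arrays for Ero1b, and with REF added to WT the call ended (adjusted p = 0.315). The Ero1a call ended without STAT5b-/- replicate 1 (adjusted p = 0.0859), STAT5b-/- replicate 2 (0.0967), WT replicate 1 (0.0644) or WT replicate 3 (0.0631). The Ero1b call ended without STAT5b-/- replicate 2 (0.0805), STAT5b-/- replicate 3 (0.0514), or WT replicate 1, 2 or 3 (0.0971, 0.0640 and 0.0997). P4hb, the founding protein disulfide isomerase, had 0.974, 0.878 and 0.922 in STAT5b-/- colons, 0.988 in REF and 0.972, 0.964 and 1.06 in WT colons, with overlapping groups (-0.11 ± 0.12, adjusted p = 0.557). Pdia4 was too variable for a call, with 0.456, 0.466 and 0.875 in STAT5b-/- colons, 0.483 in REF and 0.981, 1.44 and 0.580 in WT colons (-0.71 ± 0.39, adjusted p = 0.251). Its difference was -0.40 without WT replicate 2, and -1.06 without WT replicate 3.

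The calnexin cycle holds glycoproteins until they are folded. Its lectin chaperones and glucose sensor formed the only role group of the 7 with no call. Here 0 of 3 genes passed limma, although Calr and Uggt1 had an unadjusted p under 0.05. Pdia3, which works with these lectins, was grouped with the isomerases and was called lower. Calr, the soluble lectin chaperone calreticulin, had ratios of 0.860, 0.705 and 0.797 in STAT5b-/- colons, 0.927 in REF and 0.941, 1.04 and 1.02 in WT colons (log2 difference -0.35 ± 0.13 (SE), adjusted p = 0.104). Uggt1, which tags unfolded glycoproteins with glucose for another round, had 0.855, 0.673 and 0.667 in STAT5b-/- colons, 0.951 in REF and 0.986, 0.937 and 1.08 in WT colons (-0.46 ± 0.15, adjusted p = 0.0684). Both had all STAT5b-/- values below all WT values, and Uggt1 passed without STAT5b-/- replicate 1 (adjusted p = 0.0499) and with REF added to WT (0.0407). Canx, the membrane lectin chaperone calnexin, had 1.11, 0.927 and 1.06 in STAT5b-/- colons, 0.894 in REF and 0.948, 1.08 and 0.969 in WT colons, with no shift (0.04 ± 0.13, adjusted p = 0.854).

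Of the prolyl isomerases, which turn the backbone at proline, 2 of 3 fell. Fkbp11, known for its expression in secretory tissues, had ratios of 0.0638, 0.0996 and 0.181 in STAT5b-/- colons, 1.06 in REF and 1.00, 1.15 and 0.850 in WT colons. All 3 STAT5b-/- values lay far below every wild type value, and the log2 difference was -3.24 ± 0.36 (SE, limma adjusted p = 0.00176). Ppib, cyclophilin B, had 0.633, 0.658 and 0.683 in STAT5b-/- colons, 1.05 in REF and 1.02, 0.985 and 0.999 in WT colons (-0.60 ± 0.11, adjusted p = 0.0102). This smaller fall of 1.52-fold came with tight replicates and no overlap. Fkbp2 had 0.882, 0.716 and 0.699 in STAT5b-/- colons, 0.922 in REF and 0.942, 0.789 and 1.27 in WT colons, and the groups overlapped (-0.37 ± 0.20, adjusted p = 0.262).

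Of the stress sensors and their transcription factors, 2 of 5 fell. Creb3l1, a membrane-anchored factor released by cleavage, had ratios of 0.234, 0.317 and 0.432 in STAT5b-/- colons, 0.858 in REF and 0.967, 0.975 and 1.06 in WT colons, a 3.15-fold fall (log2 difference -1.65 ± 0.23 (SE), limma adjusted p = 0.00355). Xbp1, the factor that IRE1 activates by splicing, had 0.573, 0.523 and 0.581 in STAT5b-/- colons, 0.792 in REF and 0.920, 1.15 and 0.932 in WT colons. It was 1.78-fold lower with no overlap (-0.83 ± 0.14, adjusted p = 0.00724), and its probe set was not known to separate the spliced from the unspliced form. Eif2ak3, which encodes PERK, the kinase that slows translation, had 0.636, 0.695 and 0.807 in STAT5b-/- colons, 0.918 in REF and 1.11, 0.990 and 0.903 in WT colons. Its groups did not overlap, yet it lay just outside the threshold (-0.49 ± 0.15, adjusted p = 0.0561), and it passed with REF added to WT (adjusted p = 0.0364). Ern1, which encodes IRE1 itself, had 0.679, 0.637 and 0.686 in STAT5b-/- colons, 0.612 in REF and 0.551, 1.63 and 0.819 in WT colons. The 3 STAT5b-/- values lay within the WT range, which WT replicate 2 stretched upward (-0.44 ± 0.37, adjusted p = 0.461), and without that array the difference was -0.01. Creb3l2 also overlapped, with 0.613, 0.987 and 0.755 in STAT5b-/- colons, 0.907 in REF and 1.30, 0.762 and 0.940 in WT colons (-0.34 ± 0.25, adjusted p = 0.399).

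Of the degradation genes, 5 of 9 fell, and their falls were all smaller than 2-fold. Edem1, which trims mannose from misfolded glycoproteins, had ratios of 0.489, 0.485 and 0.541 in STAT5b-/- colons, 0.889 in REF and 0.906, 1.12 and 0.974 in WT colons, a 1.98-fold fall (log2 difference -0.98 ± 0.13 (SE), limma adjusted p = 0.00349). Its relative Edem3 fell 1.63-fold, with 0.624, 0.567 and 0.651 in STAT5b-/- colons, 0.898 in REF and 0.990, 1.02 and 0.991 in WT colons (-0.71 ± 0.12, adjusted p = 0.00721). Edem2 had 0.712, 0.701 and 0.735 in STAT5b-/- colons, 1.13 in REF and 1.15, 0.815 and 1.03 in WT colons. It was apart but not called (-0.47 ± 0.16, adjusted p = 0.0776), and it passed without WT replicate 2 (adjusted p = 0.0135) and with REF added to WT (0.0340). Sel1l, the adaptor of the ligase that ubiquitinates retrotranslocated proteins, had 0.527, 0.590 and 0.570 in STAT5b-/- colons, 0.732 in REF and 0.966, 1.05 and 0.987 in WT colons (-0.83 ± 0.12, adjusted p = 0.00394). Syvn1, the ligase HRD1 that pairs with it, had 0.664, 0.693 and 0.701 in STAT5b-/- colons, 0.737 in REF and 0.877, 1.18 and 0.947 in WT colons. For Syvn1 REF lay closer to the STAT5b-/- arrays than to WT, and the difference of -0.53 ± 0.15 (adjusted p = 0.0422) lost its call without any one of the STAT5b-/- arrays (adjusted p = 0.123, 0.119 and 0.116) or without WT replicate 3 (0.0871), and with REF added to WT (0.0988). Herpud1, a membrane protein that assembles this complex, had 0.586, 0.622 and 0.597 in STAT5b-/- colons, 0.975 in REF and 0.930, 1.09 and 0.976 in WT colons (1.66-fold lower, -0.73 ± 0.12, adjusted p = 0.00724).

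The remaining 3 degradation genes were not called. Derl1, part of the exit channel, had ratios of 1.16, 0.964 and 1.02 in STAT5b-/- colons, 1.09 in REF and 1.01, 0.932 and 1.06 in WT colons (log2 difference 0.07 ± 0.13 (SE), limma adjusted p = 0.770). Derl2, of the same family, had 0.925, 0.859 and 0.912 in STAT5b-/- colons, 0.976 in REF and 1.01, 0.926 and 1.06 in WT colons (-0.15 ± 0.12, adjusted p = 0.426). Os9, a lectin that hands glycoproteins to the ligase, was the one member whose STAT5b-/- values lay above all wild type values, with 1.25, 1.27 and 1.20 in STAT5b-/- colons, 1.07 in REF and 1.08, 0.862 and 1.05 in WT colons. That difference was 0.32 ± 0.13 and did not pass (adjusted p = 0.147). Lying above WT and REF together held for 22.6% of all genes.

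**Figure D3:**
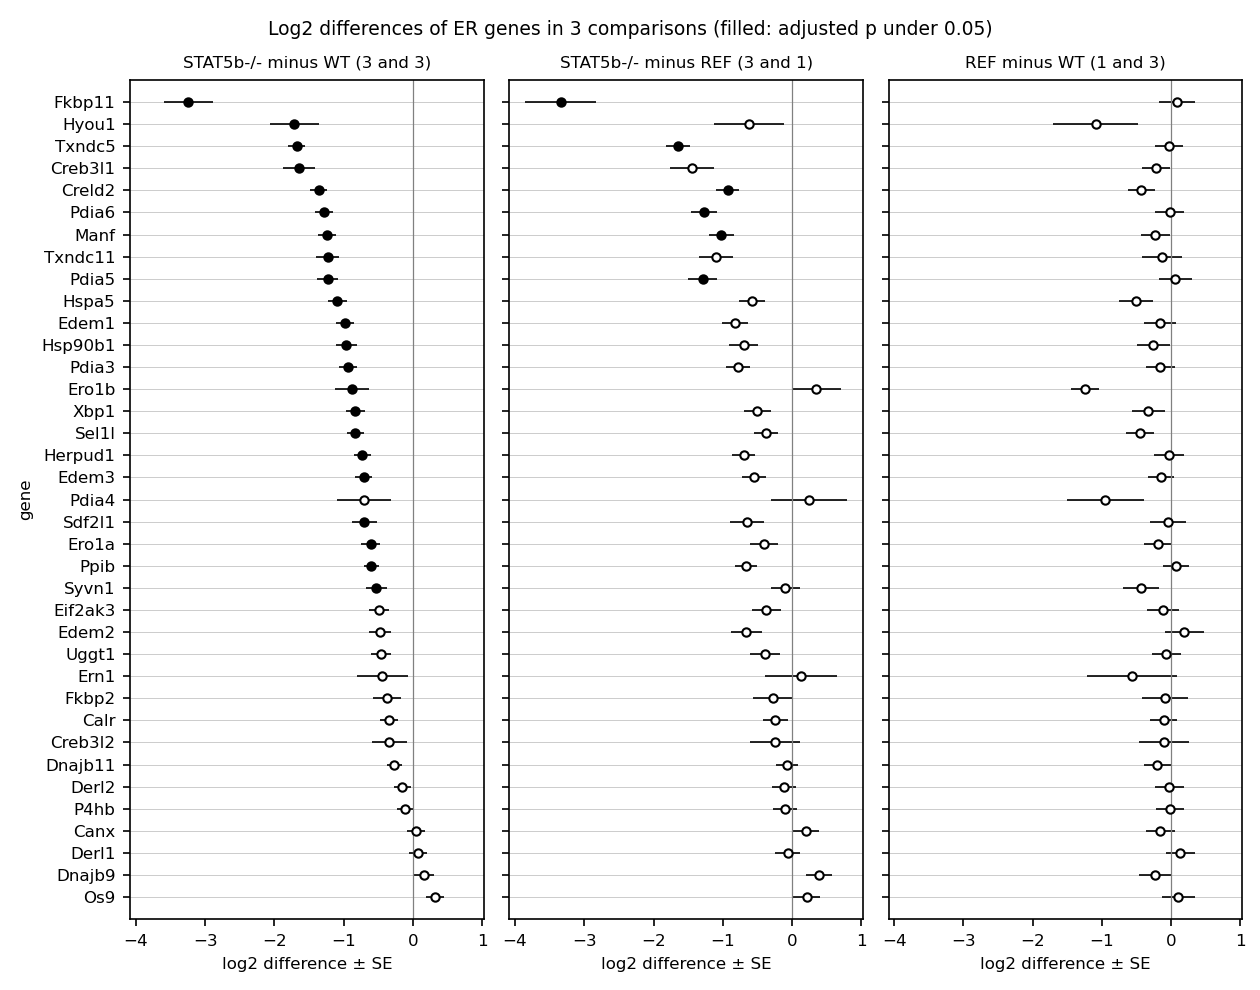
Log2 difference ± SE of the fit for each of the 37 ER genes in STAT5b-/- minus WT (3 and 3 samples), STAT5b-/- minus REF (3 and 1) and REF minus WT (1 and 3), ordered by the first, with filled points for adjusted p under 0.05. The first panel has 22 filled points, the second 6 and the third 0, and the panels share samples.

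The STAT5b-/- arrays were also set against REF, the other wild type sample, with all groups in one fit and REF assumed to vary like the rest. Here 6 of the 37 members were lower (16.2%), where 2.39% of all genes were lower. By limma 0 were higher, against 3.44% of all genes, and 0 at an unadjusted p under 0.05, against 11.7%. Downward, 18 members reached the unadjusted p, against 7.83% of all genes. The called members were Fkbp11 (log2 difference -3.34 ± 0.51 (SE), adjusted p = 0.0158), Txndc5 (-1.65 ± 0.17, adjusted p = 0.00436), Pdia5 (-1.29 ± 0.21, 0.0192), Pdia6 (-1.27 ± 0.19, 0.0150), Manf (-1.02 ± 0.18, 0.0258) and Creld2 (-0.93 ± 0.17, 0.0282). These include 3 isomerases, 1 prolyl isomerase and 2 stress-induced luminal proteins. The 3 STAT5b-/- arrays lay below REF in 29 members, where 24.2% of all genes did. The 6 calls became 3, 2 and 4 without STAT5b-/- replicate 1, 2 and 3, and 0 after quantile normalization, while median centring gave 9 and a fit of STAT5b-/- and REF alone 8.

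REF, as 1 sample, was also fitted against the WT arrays alone, which give the spread, and lay slightly below WT for most of these genes. Its ratio was below 1 in 31 of the 37 members, and the log2 difference of REF against WT was negative in 83.8% of them, against 57.2% of all genes. The median log2 difference was -0.15 for the ER genes and -0.05 over all genes. Of the members 0 passed limma, with 0.00% of all genes called in that comparison. At an unadjusted p under 0.05, 1 member, Ero1b, was lower and 0 were higher, against 1.00% and 0.446% of all genes. REF lay below every WT array in 19 members, where 28.2% of all genes did, and in 14 of the 22 members that fell in STAT5b-/- colon. The lowest REF differences were those of Ero1b (-1.24 ± 0.20 (SE)), Hyou1 (-1.09 ± 0.61), Pdia4 (-0.95 ± 0.55), Ern1 (-0.56 ± 0.65) and Hspa5 (-0.51 ± 0.24). Both this comparison and that of STAT5b-/- against WT use the same WT arrays, so a shared sign is not independent.

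Of 34 further ER folding genes, 9 fell (26.5%, against 8.42% of all genes) and 0 rose by limma (14 and 0 by an unadjusted p under 0.05), with a median log2 difference of -0.28. Kdelr3, a receptor that returns escaped chaperones to the ER, fell 5.26-fold to 0.181, 0.184 and 0.203 in STAT5b-/- colons, against 0.990 in REF and 0.986, 0.888 and 1.13 in WT colons (-2.40 ± 0.14 (SE), adjusted p = 0.000181). The cargo receptor Lman1 fell 2.46-fold (-1.30 ± 0.12, adjusted p = 0.000853), the prolyl isomerase Fkbp9 2.11-fold (-1.08 ± 0.12, 0.00159) and the ER peroxiredoxin Prdx4 2.09-fold (-1.07 ± 0.12, 0.00197). Of 31 further degradation genes, 2 fell (6.45%) and 6 rose (19.4%), shares near the 8.42% and 13.3% of all genes, and the median log2 difference was 0.20. Derl3, a relative of Derl1, fell (-1.41 ± 0.19, adjusted p = 0.00312). Among the rises were Erlin1, a scaffold of sterol-linked degradation (1.43 ± 0.14, adjusted p = 0.00100), the ligase Marchf6 (0.96 ± 0.16, 0.00784) and Tmub1 (0.87 ± 0.18, 0.0151). Of 14 genes that act beside the sensors, 4 fell (28.6%) and 3 rose (21.4%), with a median log2 difference of -0.07. Creb3l4, a relative of Creb3l1, fell (-3.10 ± 0.14, adjusted p = 8.83e-05), as did Ern2, the form of IRE1 found in mucosal epithelium (-2.30 ± 0.16, 0.000396), and Bhlha15, a transcription factor of secretory cells (-1.66 ± 0.17, 0.00112). Ppp1r15b, a phosphatase subunit that reverses the PERK signal, rose (1.17 ± 0.16, adjusted p = 0.00397). Creb3l3 (1.59 ± 0.26, adjusted p = 0.00663) and Ppp1r15a (0.91 ± 0.26, 0.0486) rose as well.

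**Figure D4:**
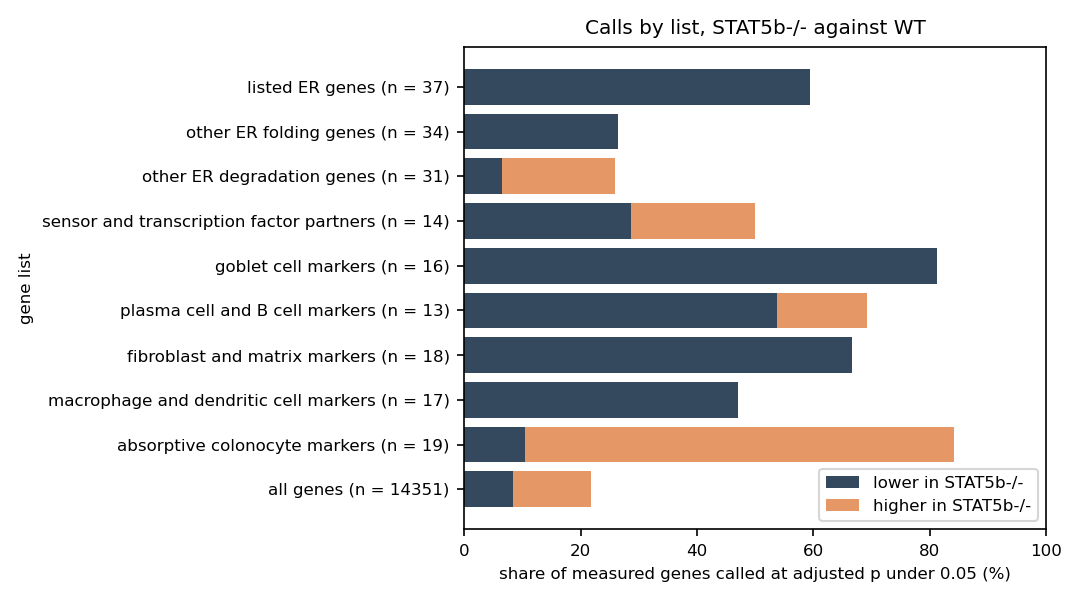
Share of measured genes called at adjusted p under 0.05 in STAT5b-/- against WT (horizontal axis, percent), split into lower and higher, for the listed ER genes, further ER lists, cell type marker lists and all genes, with the number of genes in brackets. Falls make up all calls of the listed ER genes and of the further folding genes, whereas the further degradation genes have 6.45% lower and 19.4% higher.

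Most markers of goblet cells, and of plasma and B cells, fell beside the ER genes. Of 16 goblet cell markers, 13 fell (81.2%, against 8.42% of all genes) and 0 rose by limma (14 and 0 by an unadjusted p under 0.05), with a median log2 difference of -1.48. Their summed ratio was 5.59 to 6.17 in the STAT5b-/- arrays, 13.7 in REF and 15.2 to 16.7 in the WT arrays. Those with the smallest p were Creb3l4, Capn9 (-3.27 ± 0.15 (SE), adjusted p = 9.35e-05), Sytl2 (-2.16 ± 0.12, 0.000171) and Spdef, the goblet cell transcription factor (-3.07 ± 0.18, 0.000181). The 3 not called were Galnt12 (-0.56 ± 0.17, adjusted p = 0.0635), Zg16 (-0.32 ± 0.16, 0.205) and Tff3 (-0.15 ± 0.18, 0.618). Zg16 and Tff3 overlapped the WT arrays. Creb3l4, Ern2 and Agr2 stand in this list and in an ER list as well, as Derl3 does in the plasma cell list. Of 13 plasma cell and B cell markers, 7 fell (53.8%) and 2 rose (15.4%, against 13.3% of all genes), with a median of -1.63 and a summed ratio of 6.67 to 8.95 in the STAT5b-/- arrays, 10.5 in REF and 10.8 to 14.7 in the WT arrays. Irf4 (-2.24 ± 0.20, adjusted p = 0.000771), Mzb1, an ER cofactor of antibody assembly (-2.65 ± 0.27, 0.00126), and Tnfrsf17 (-2.11 ± 0.23, 0.00150) fell. Prdm1 (1.64 ± 0.15, 0.000908) and Sdc1 (0.41 ± 0.11, 0.0433) rose. Muc2 and Fcgbp of the goblet cell list, and Cd79a and Tent5c of the plasma and B cell list, matched no probe set and were not analysed here. The part of goblet and plasma cell markers in the fall of the ER genes was not tested.

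The other cell types of the tissue were read in the same way, and their part in the fall of the ER genes was not tested either. Fibroblast and matrix markers fell in 12 of 18, or 66.7% (0 rose, also by an unadjusted p), with a summed ratio of 11.4 to 12.9 in the STAT5b-/- arrays, 16.1 in REF and 16.2 to 19.3 in the WT arrays. Among them were Fbln1 (-1.76 ± 0.15), Dcn (-1.11 ± 0.14), Dpt (-1.08 ± 0.15) and Lum (-1.36 ± 0.20). Of the 17 markers of macrophages and dendritic cells, 8 fell, or 47.1% (0 rose, also by an unadjusted p), with sums of 10.6 to 12.8 in the STAT5b-/- arrays, 17.2 in REF and 15.2 to 19.7 in the WT arrays. They included Mrc1 (-1.92 ± 0.19), Lyz2 (-1.33 ± 0.19), Adgre1 (-1.93 ± 0.29) and Cd14 (-1.54 ± 0.23). Absorptive colonocyte markers went the other way, with 14 of 19 risen (73.7%) and 2 fallen (10.5%), among them Mep1a (1.78 ± 0.15), Tmigd1 (2.79 ± 0.27) and Slc16a1 (1.34 ± 0.14) beside Slc51a (5.94 ± 0.47). Enteroendocrine markers fell in 4 of 16 (25.0%) and rose in 2 (12.5%, near the 13.3% of all genes). Insl5 (at or near the lowest deposited value, 0.01, in all STAT5b-/- arrays) and Pyy (-1.94 ± 0.18) fell, while Nts (4.69 ± 0.28) and Sct (2.23 ± 0.19) rose. A list of pancreas genes, a check for tissue carried over, had 1 of 10 lower, a share near the 8.42% of all genes. That gene, Clps, fell 64.0-fold (-6.00 ± 0.43, limma adjusted p = 0.000396). It had 0.0100, 0.0159 and 0.0181 in the STAT5b-/- arrays, at or near the lowest value, 0.457 in REF and 1.25, 1.28 and 0.469 in the WT arrays. The median ratio of the pancreas list was 0.689 to 0.848 in the STAT5b-/- arrays, 0.723 in REF, and 0.740, 1.46 and 0.820 in the WT arrays. WT replicate 2 thus stood apart, and without that array the ER genes again numbered 22 lower and 0 higher. The median ratio of the ER genes was 0.586, 0.622 and 0.678 in the STAT5b-/- arrays, 0.898 in REF and 0.983, 1.02 and 0.974 in the WT arrays. It was lowest in STAT5b-/- replicate 1, the male, while the goblet and plasma cell medians were lowest in STAT5b-/- replicate 2, at 0.288 and 0.194. Without the male array, 19 members were lower and 0 higher.

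**Figure D5:**
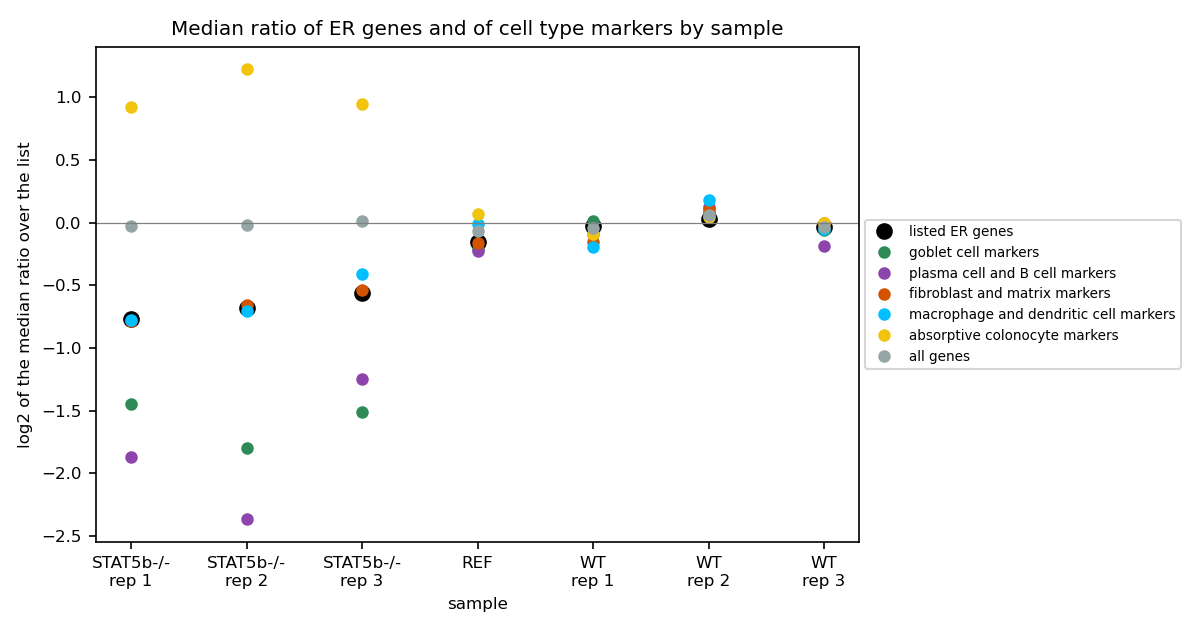
Log2 of the median ratio (vertical axis) of the listed ER genes, of 5 cell type marker lists and of all genes in each of the 7 samples. The ER genes lie below the WT mean in the 3 STAT5b-/- arrays, beside the fibroblast and macrophage markers and above the goblet and plasma cell markers, while the absorptive colonocyte markers lie above it.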

How the data were processed

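Colon RNA was measured on Affymetrix arrays. Per the labels' protocols, 100 ng of total RNA was amplified once and biotin-labelled, and RMA, without a version, is named in the submitters' processing notes. The deposited values are linear ratios, which the authors scaled to WT: the 3 WT values of a probe set average 1, with a largest deviation of 1.87e-07. Both REF columns held the same values (largest relative gap 2.47e-07) and were counted as 1 sample. The lowest value, 0.01, was treated as a floor and no member reached it. The number of arrays limits the precision.

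Probe set names were matched through their RefSeq accessions to GRCm38.p6 (15228 of 26180 with 1 symbol, 14351 genes). Ratios were turned into log2 values without a pseudocount and averaged per gene, which for the members concerned Txndc11 and Sel1l. Groups were compared with limma 3.58.1 (lmFit, eBayes) in R 4.3.3, Benjamini-Hochberg adjusted over all genes, threshold 0.05, with no set test. The fit was tested on simulated data. The genes and lists were chosen with earlier results of these data known. From each list, the 4 genes with the smallest p were named. The uncalled goblet cell markers, Sdc1, Saa1, Ceacam20, Creb3l3 and Ppp1r15a were added. Alternatives were other scalings, probe set rules, moderation, arrays left out and a replicate block.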

Additional observations from a re-analysis of the deposited data

How the results depend on the processing

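The 22 falls among the ER genes were again 22 under median centring, single probe sets, the probe set with the highest mean ratio (not the brightest, since levels are unknown), removal of probe sets at the floor, robust moderation and 1 fit of all groups. They numbered 23 with REF added to WT, 21 with every probe set in the adjustment, 17 with replicate number as a block, 17 to 22 with an array left out and 8 after quantile normalization; 0 rises were seen under any of these. The block ended the calls of Sdf2l1, Ero1a, Ero1b, Ppib and Syvn1 and left 801 lower and 1238 higher genes overall. Over all genes, calls were 239 lower and 158 higher after quantile normalization, 663 to 1359 lower and 1053 to 2192 higher with an array left out, and 2113 lower with every probe set tested, which adds unnamed ones. The median log2 difference of the ER genes was -0.55 after quantile normalization and -0.75 to -0.58 with an array left out. Against REF, quantile normalization left 0 ER genes, 29 lower and 6 higher genes, leaving out a STAT5b-/- array 2 to 4 ER genes, 132 to 187 lower and 164 to 209 higher genes, and a fit of those groups alone 800 higher genes. Median centring gave 9 ER genes lower against REF and the fit of those groups alone 8. Canx and Derl1 changed sign without STAT5b-/- replicate 1, each ranging from -0.01 to 0.12 with an array left out. Deviations of same-numbered STAT5b-/- and WT arrays correlated at 0.04, -0.10 and -0.19, so the numbers were not taken as pairs. Causes were not tested. Median signal over background is unknown from ratios, so dim probe sets could not be set aside.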
